A study of Mus musculus with 9 samples.

Results

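Collagens I, III, V, VI, XII and XIV were described by 10 genes, Col1a1, Col1a2, Col3a1, Col5a1, Col5a2, Col6a1, Col6a2, Col6a3, Col12a1 and Col14a1, out of 55471 genes in the deposited tables. The members were taken by symbol from the collagen types typical of fibrous connective tissue. The rule uses no measured value, but the set was drawn up with earlier results of these data known. Collagen VI is kept in this set although it is neither fibrillar nor a FACIT (a fibril-associated collagen with interrupted triple helices). It forms beaded microfibrils. All 10 genes had enough counts to be tested, among 15362 genes tested in all.

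RNA-seq was performed on primary mouse articular chondrocytes, the resident cells of joint cartilage, in 3 groups of 3 cultures. The cells were isolated from the knee ends of femur and tibia of wild-type mice at postnatal day 5, and all 9 cultures were infected for 2 h with an adenovirus. Ad-Control cultures received the control virus, Ad-OSCAR cultures received a virus that overexpresses OSCAR (osteoclast-associated receptor, an immunoglobulin-type receptor that binds collagen), and Ad-OSCAR + 5-ASA cultures received the OSCAR virus and then 10 uM of 5-aminosalicylic acid (5-ASA), an anti-inflammatory drug. The labels give a multiplicity of infection of 400, and the methods another one. The labels also give 3 days of culture before infection and 36 h before the drug. The methods give 2 days of culture before infection and 24 h with or without 5-ASA. All plates, controls included, were coated with COLpep, a collagen peptide that engages OSCAR, and no interleukin was added to these cultures. There was no group with the control virus and 5-ASA, so the drug can be compared only among OSCAR-infected cultures. The methods name ICR or C57BL/6J newborns as the source of primary chondrocytes, and the reporting summary names ICR newborns of both sexes. Neither gives the strain, sex or number of animals behind each of these cultures. Nothing says that the 3 cultures of a group came from separate animals. The p-values below therefore measure only the spread between these cultures.

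Collagen I is the main fibril of bone, tendon and fibrous tissue and is built from the products of Col1a1 and Col1a2. Collagen III co-assembles with it, and collagen V is found within the fibrils and limits their diameter. Collagen VI lies around the chondrocyte as part of the pericellular matrix, and collagens XII and XIV sit on fibril surfaces. Healthy articular cartilage is built mainly from collagens II, IX and XI, and a rise of collagen I and III in cultured chondrocytes is a textbook sign of dedifferentiation.

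Libraries held between 19733448 and 28192740 counts. Oscar itself had 3 to 4 counts in Ad-Control cultures, 173445 to 187278 in Ad-OSCAR cultures and 80766 to 94199 with 5-ASA. Its normalised level was 6665 ± 397 CPM (CPM are counts scaled to a common library size with TMM factors, SD, n = 3) in Ad-OSCAR cultures and 3399 ± 404 CPM with the drug, so the treated cultures carried less Oscar RNA than the untreated ones. The part of this difference in the drug comparisons below was not tested. Saa3, a serum amyloid gene, took 3.12% to 3.22% of all TPM (a transcript abundance scaled by length and by the total of the culture) in Ad-Control, 12.7% to 13.3% in Ad-OSCAR and 14.3% to 15.2% in Ad-OSCAR + 5-ASA cultures. Because TPM values of a culture sum to a fixed total, groups were compared on CPM, and TPM was used to compare genes within a culture. The chondrocyte genes Col2a1, Acan and Sox9 were all measured in Ad-Control cultures. Col2a1, the chain of collagen II, went from 33858 ± 2574 CPM in Ad-Control to 2159 ± 183 CPM in Ad-OSCAR and 2624 ± 223 CPM in Ad-OSCAR + 5-ASA cultures.

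In Ad-OSCAR cultures, 8 of the 10 genes were lower than in Ad-Control cultures and 2 were higher, and every one of the 10 separated the groups without overlap. Both collagen I genes and Col14a1 fell most, the 3 collagen VI genes, Col5a1 and Col12a1 fell less, and Col3a1 and Col5a2 rose. With 5-ASA, 6 of the 10 genes were higher than in untreated Ad-OSCAR cultures and none passed the test as lower. For each gene the estimated change with the drug was smaller than that with OSCAR, and every gene that differed from Ad-Control without the drug still differed from it with the drug. These calls rest on the edgeR quasi-likelihood test, with p-values adjusted by Benjamini-Hochberg over all genes tested and a threshold of 0.05. Only Col6a3 was lower with the drug at an unadjusted p under 0.05 (0.0448), and DESeq2 called 0 as lower too. On length-scaled values, with limma on log2(TPM + 1), Col1a2 was the only gene whose rise with 5-ASA passed. As background, 32.2% of all genes tested fell, 32.7% rose and 65% changed in either direction between Ad-OSCAR and Ad-Control cultures, and 69% showed no overlap of CPM values. Between the drug-treated and the untreated Ad-OSCAR cultures, 10.4% of all genes rose and 7.38% fell, 17.8% in either direction. The median log2 fold change of the 10 genes was -1.08 for OSCAR and 0.23 for 5-ASA, beside 0.02 and -0.0044 over all genes tested. These are bulk samples, in which fewer cells of a type and less RNA per cell cannot be told apart. The plot of levels by culture shows each gene in the 9 cultures.

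**Figure D1:**
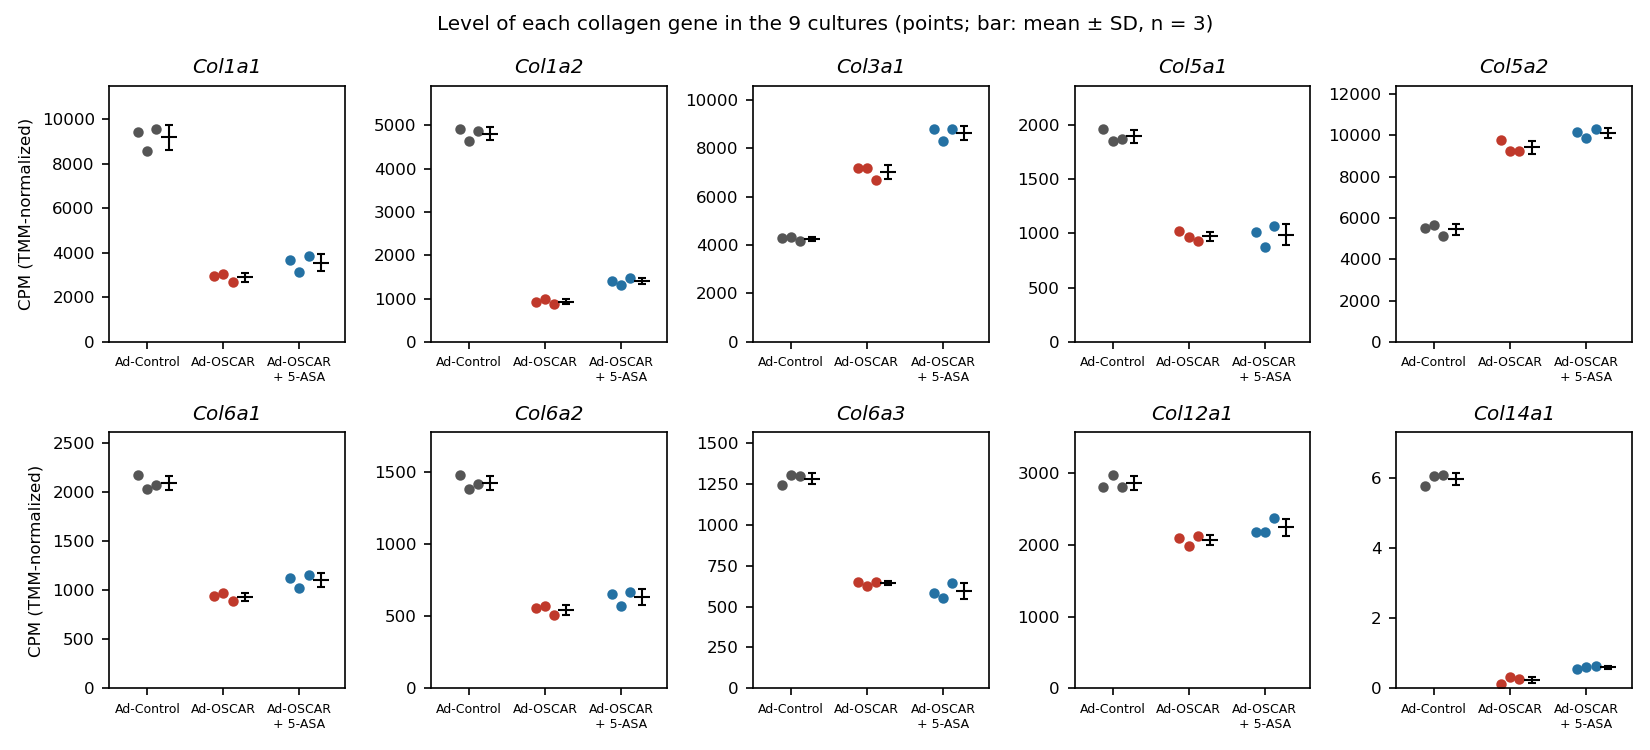
Level of each of the 10 collagen genes as TMM-normalised CPM (y axis, linear from 0) in the 3 groups (x axis), with 1 point per culture and a bar for the mean ± SD (n = 3). Only Col3a1 and Col5a2 sit higher in both OSCAR groups than in Ad-Control, and Col14a1 reaches at most 6.08 CPM while Col5a2 reaches 10329.9 CPM.

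The start regions of members on either side of this split are shown for Col3a1, which rose, and Col5a1, which fell. Of the 10 genes, 6 matched promoter windows in RefSeq (GRCm38.p6), with 7 windows in all. Col1a1, Col5a2, Col12a1 and Col14a1 had none, so Col3a1 was the only riser with a window. The 250 bases before each RefSeq start were searched on both strands for the CCAAT box, the GC box GGGCGG and the TATA motif TATAAA. Capitals mark the matches, and both genes lie on the + strand. The Col3a1 window is chr1:45311288-45311537 and the Col5a1 window is chr2:27886175-27886424.
Col3a1: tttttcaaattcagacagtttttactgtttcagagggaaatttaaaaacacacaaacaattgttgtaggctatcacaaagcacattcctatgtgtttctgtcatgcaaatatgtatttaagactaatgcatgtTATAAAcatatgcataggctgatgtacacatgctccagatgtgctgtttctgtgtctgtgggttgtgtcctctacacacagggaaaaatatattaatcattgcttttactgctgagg
Col5a1: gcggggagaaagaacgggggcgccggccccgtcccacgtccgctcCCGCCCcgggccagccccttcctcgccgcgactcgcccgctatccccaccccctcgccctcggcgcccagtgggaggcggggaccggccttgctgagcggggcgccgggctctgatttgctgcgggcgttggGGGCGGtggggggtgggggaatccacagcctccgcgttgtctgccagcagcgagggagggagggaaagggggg
The Col3a1 window held TATAAA between 117 and 112 bases before the start and had a GC content of 35.2%, the lowest of the 7 windows. The Col5a1 window held GGGCGG between 73 and 68 bases and its reverse complement between 205 and 200 bases before the start. GGGCGG was also present in the windows of Col1a2 and Col6a2, and CCAAT was found only in that of Col1a2. The windows of Col6a1 and Col6a3, which fell too, held none of these motifs. Over all 32851 windows of the same length, the CCAAT box was present in 33.8%, the GGGCGG box in 32.7% and the TATAAA motif in 12.4%. These matches describe the letters only, and no factor binding was measured.

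Col1a1 (ENSMUSG00000001506.10, chr11:94936224-94953042 on GRCm38, + strand) and Col1a2 (ENSMUSG00000029661.16, chr6:4504814-4541544, + strand) encode the paired chains of collagen I. The Ad-Control cultures had 9436, 8562 and 9586 CPM of Col1a1, the Ad-OSCAR cultures 2958, 3041 and 2685 CPM, and the Ad-OSCAR + 5-ASA cultures 3670.3, 3154 and 3859.7 CPM. The control cultures were thus all above the others, and the lowest drug-treated culture was just above the highest untreated one. Col1a1 was 3.18-fold lower in Ad-OSCAR than in Ad-Control cultures (log2 fold change -1.67, SE 0.065, edgeR adjusted p = 1.01e-13) and 1.23-fold higher with 5-ASA than without it (log2 0.30, SE 0.063, edgeR adjusted p = 0.00273).

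Col1a2 stood at 4924, 4633 and 4858 CPM in Ad-Control, at 921, 981 and 870.2 CPM in Ad-OSCAR and at 1409, 1319 and 1463 CPM in Ad-OSCAR + 5-ASA cultures. The 3 groups did not overlap. Col1a2 was 5.20-fold lower with OSCAR (log2 -2.38, SE 0.051, edgeR adjusted p = 2.24e-17) and 1.51-fold higher with 5-ASA (log2 0.60, SE 0.048, edgeR adjusted p = 1.51e-07). The 95% confidence intervals of the OSCAR log2 fold change ran from -1.80 to -1.53 for Col1a1 and from -2.49 to -2.27 for Col1a2, so the chains of the same collagen fell by different amounts. In TPM, which is scaled by transcript length, Col1a1 stood at 1.70, 1.64 and 1.76 times Col1a2 in Ad-Control, 2.84, 2.77 and 2.72 times in Ad-OSCAR, and 2.32, 2.13 and 2.34 times in Ad-OSCAR + 5-ASA cultures. This ratio did not overlap between any groups, and each exact two-sided permutation test of it gave p = 0.1, the smallest that 3 against 3 cultures allow.

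Col3a1 (ENSMUSG00000026043.18, chr1:45311538-45349706, + strand), the only chain of collagen III, had 4281, 4318 and 4161 CPM in Ad-Control, 7179, 7173 and 6675 CPM in Ad-OSCAR and 8792, 8301 and 8818 CPM in Ad-OSCAR + 5-ASA cultures. Its order was the reverse of that of collagen I for OSCAR, with every OSCAR culture above every Ad-Control culture, and it was higher again with the drug. Col3a1 was 1.65-fold higher with OSCAR (log2 0.72, SE 0.039, edgeR adjusted p = 1.06e-11) and another 1.23-fold higher with 5-ASA (log2 0.30, SE 0.039, edgeR adjusted p = 2.44e-05). Within a culture, Col3a1 TPM was 0.742 ± 0.0993 of Col1a1 TPM in Ad-Control (SD, n = 3), 4.01 ± 0.303 in Ad-OSCAR and 3.88 ± 0.469 in Ad-OSCAR + 5-ASA cultures. The ratio of collagen III to collagen I transcripts was thus 5.43-fold higher with OSCAR, with no overlap (exact permutation p = 0.1), while the values with and without 5-ASA overlapped (exact permutation p = 0.7).

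Collagen V was split between its chains. Col5a1 (ENSMUSG00000026837.16, chr2:27886425-28039514, + strand) had 1964, 1849 and 1869.5 CPM in Ad-Control, 1019, 964 and 932 CPM in Ad-OSCAR and 1014, 877 and 1065 CPM in Ad-OSCAR + 5-ASA cultures. It was 1.95-fold lower with OSCAR (log2 -0.96, SE 0.058, edgeR adjusted p = 6.10e-11), and the drug-treated cultures spanned the untreated ones. For 5-ASA the log2 fold change of Col5a1 was 0.02 with a 95% confidence interval from -0.10 to 0.14 (edgeR adjusted p = 0.863), and its sign changed in some alternative fits.

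Col5a2 (ENSMUSG00000026042.16, chr1:45374321-45503282, - strand), the partner chain, had 5507, 5684 and 5151 CPM in Ad-Control, 9779, 9250.15 and 9240.0 CPM in Ad-OSCAR and 10178, 9865 and 10329.9 CPM in Ad-OSCAR + 5-ASA cultures. It was 1.73-fold higher with OSCAR (log2 0.79, SE 0.040, edgeR adjusted p = 4.40e-12). With 5-ASA its 3 values lay just above the untreated ones, and the log2 difference of 0.10 (95% confidence interval 0.02 to 0.19) did not pass the test after adjustment (edgeR adjusted p = 0.0837). Col5a1 TPM was 0.420 ± 0.0393 of Col5a2 TPM in Ad-Control cultures, 0.124 ± 0.0036 in Ad-OSCAR and 0.122 ± 0.0078 in Ad-OSCAR + 5-ASA cultures (SD, n = 3). The chain ratio was 3.38-fold lower with OSCAR and did not overlap (exact permutation p = 0.1), and it was within its spread between the OSCAR groups (exact permutation p = 0.9). A further chain of collagen V outside the 10 genes, Col5a3, rose from 83.1 CPM in Ad-Control to 314 CPM in Ad-OSCAR cultures (log2 1.92, SE 0.067).

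**Figure D2:**
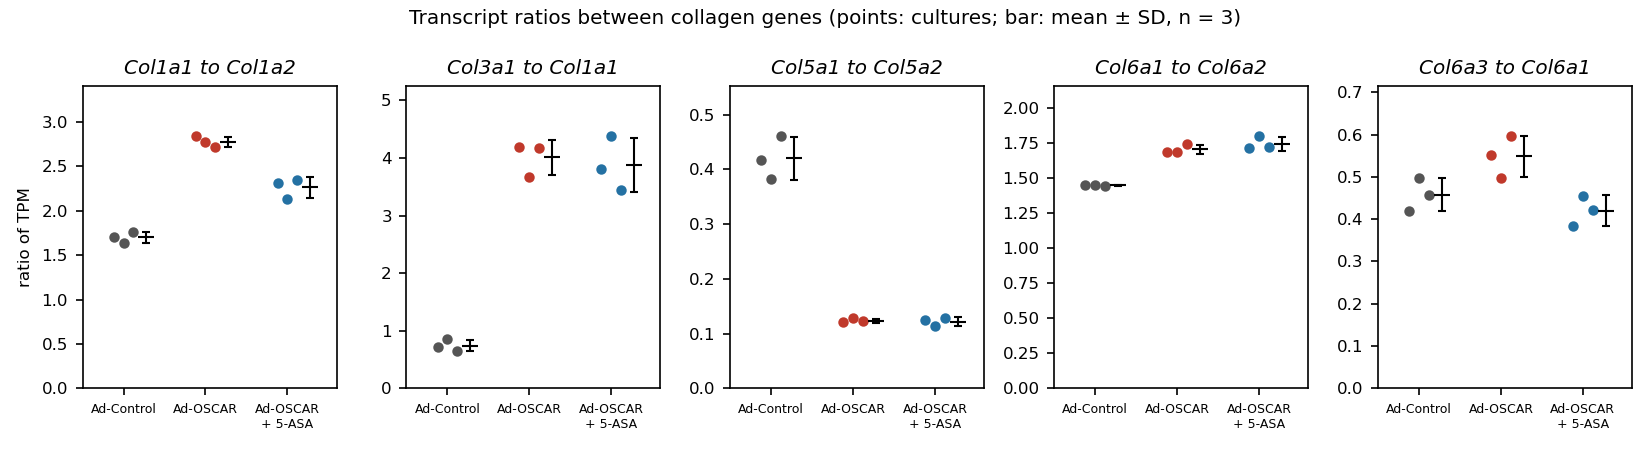
Ratios of TPM between collagen genes within each culture (y axes, linear from 0), by group (x axis), with 1 point per culture and a bar for the mean ± SD (n = 3). The Col3a1 to Col1a1 ratio is between 3.45 and 4.38 in the 6 OSCAR-infected cultures and between 0.654 and 0.850 in the Ad-Control cultures, while the Col5a1 to Col5a2 ratio is lower in the OSCAR-infected ones.

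Col3a1 and Col5a2, the only members that rose with OSCAR, are also chromosomal neighbours. They lie 24.6 kb apart on chromosome 1 on opposite strands. The nearest tested protein-coding genes beyond them, chosen for their position after the values were seen, were Gulp1 at 515 kb and Wdr75 at 292 kb. Gulp1 fell with OSCAR (log2 -1.20, SE 0.083) and Wdr75 fell slightly (log2 -0.17, SE 0.048). Neither of these flanking genes rose. Col6a2 and Col6a1 lie 85.2 kb apart on chromosome 10, on the same strand, and both fell. Of the genes flanking this pair, Lss at 38.6 kb fell too (log2 -0.94, SE 0.052) and Pcbp3 at 35.7 kb rose (log2 0.32, SE 0.095).

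The collagen VI genes fell together. Col6a1 (ENSMUSG00000001119.7, chr10:76708792-76726168, - strand) had 2172, 2029 and 2074 CPM in Ad-Control, 939, 969.8 and 889 CPM in Ad-OSCAR and 1126, 1022 and 1154 CPM in Ad-OSCAR + 5-ASA cultures. The groups did not overlap, and Col6a1 was 2.24-fold lower with OSCAR (log2 -1.17, SE 0.050, edgeR adjusted p = 3.64e-13) and 1.18-fold higher with 5-ASA (log2 0.24, SE 0.049, edgeR adjusted p = 0.00211).

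Col6a2 (ENSMUSG00000020241.13, chr10:76595762-76623630, - strand) had 1478, 1384 and 1413 CPM in Ad-Control, 554, 571 and 506 CPM in Ad-OSCAR and 657, 567 and 669 CPM in Ad-OSCAR + 5-ASA cultures. It was 2.62-fold lower with OSCAR (log2 -1.39, SE 0.059, edgeR adjusted p = 3.71e-13). One drug-treated culture lay among the untreated ones, and the 1.16-fold rise with 5-ASA (log2 0.22, SE 0.058, edgeR adjusted p = 0.0152) was lost when Ad-OSCAR culture 3 or drug-treated culture 1 or 3 was left out (edgeR adjusted p = 0.0876, 0.0868 and 0.0753).

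Col6a3 (ENSMUSG00000048126.16, chr1:90765923-90843971, - strand), which encodes the largest collagen VI chain, had 1242, 1305 and 1297 CPM in Ad-Control, 648, 629 and 649 CPM in Ad-OSCAR and 586, 555 and 647 CPM in Ad-OSCAR + 5-ASA cultures. It was 1.99-fold lower with OSCAR (log2 -0.996, SE 0.050, edgeR adjusted p = 3.83e-12). Unlike Col6a1 and Col6a2, it had a drug estimate below 0 (log2 -0.11, 95% confidence interval -0.21 to -0.0028, edgeR adjusted p = 0.153), which passed the test without drug-treated culture 3 (log2 -0.17, edgeR adjusted p = 0.0155). Col6a3 TPM was 0.549 ± 0.0488 of Col6a1 TPM in Ad-OSCAR and 0.420 ± 0.0362 in Ad-OSCAR + 5-ASA cultures (SD, n = 3), with no overlap between these groups (exact permutation p = 0.1). The Col6a1 to Col6a2 ratio of TPM moved least of the chain ratios with OSCAR, from 1.45 ± 0.0035 in Ad-Control to 1.71 ± 0.0326 in Ad-OSCAR cultures.

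The fibril-surface collagens differed most from each other. Col12a1 (ENSMUSG00000032332.17, chr9:79598991-79718831, - strand), a FACIT of dense connective tissue, had 2809.6, 2971 and 2806 CPM in Ad-Control, 2101, 1984 and 2120.0 CPM in Ad-OSCAR and 2174, 2173 and 2377 CPM in Ad-OSCAR + 5-ASA cultures. It showed the smallest fall of the 8 genes, 1.38-fold (log2 -0.47, SE 0.044, edgeR adjusted p = 3.28e-08). With 5-ASA its values lay just above the untreated ones, with a log2 difference of 0.12 (95% confidence interval 0.02 to 0.21, edgeR adjusted p = 0.0811).

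Col14a1 (ENSMUSG00000022371.16, chr15:55307750-55520803, + strand) was the least abundant member, and its counts were near the detection limit in Ad-OSCAR cultures. Its counts were 122, 147 and 115 in Ad-Control, 4, 8 and 7 in Ad-OSCAR and 14, 17 and 16 in Ad-OSCAR + 5-ASA cultures. The groups did not overlap, at 5.96 ± 0.175, 0.239 ± 0.0971 and 0.597 ± 0.0510 CPM (SD, n = 3). Col14a1 was 24.9-fold lower with OSCAR (log2 -4.64, SE 0.24, edgeR adjusted p = 4.68e-12) and 2.52-fold higher with 5-ASA (log2 1.33, SE 0.34, edgeR adjusted p = 0.00952). The rise with the drug rests on 4 to 17 counts a culture, and without Ad-OSCAR culture 1 it was 1.03 on the log2 scale (edgeR adjusted p = 0.0708).

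**Figure D3:**
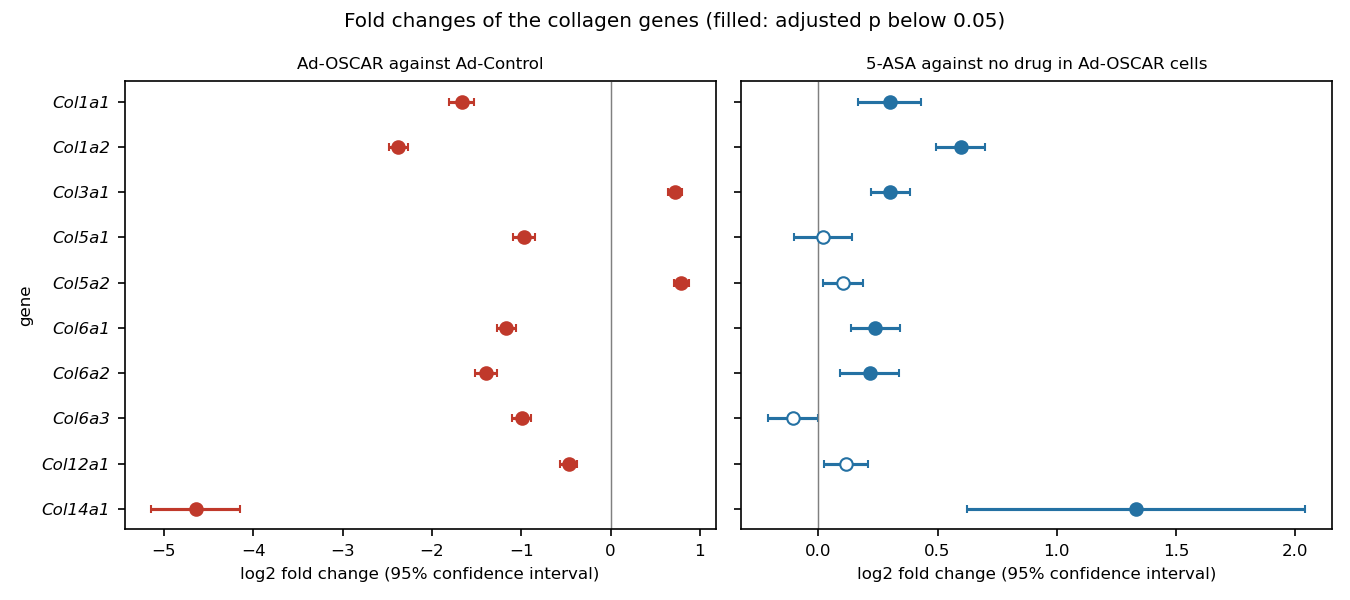
Log2 fold changes of the 10 genes (x axis) with 95% confidence intervals, for Ad-OSCAR against Ad-Control (left) and for 5-ASA against no drug in OSCAR-infected cells (right), filled where the adjusted p of edgeR's quasi-likelihood test was below 0.05. With OSCAR the points run from -4.64 for Col14a1 to 0.79 for Col5a2, and with 5-ASA from -0.11 for Col6a3 to 1.33 for Col14a1.

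Under the thresholds of the study's own methods, fewer genes stood out. For OSCAR (log2 fold change beyond 1.5 and adjusted p below 0.05), Col1a1, Col1a2 and Col14a1 fell (with limma on log2(TPM + 1), 2 of these, without Col14a1) and no member rose, against 5.39% and 4.57% of all genes tested (9.96% in either direction). The looser rule that the methods set for drug-treated cells against Ad-Control (fold beyond 1.5 and unadjusted p below 0.05) was applied here also to 5-ASA against no drug, where Col1a2 and Col14a1 rose and none fell, against 2.27% and 1.87% of all genes (4.15% in either direction). Col1a2 stood at 1.51-fold, just past the 1.5-fold cut, and neither gene passed this rule with limma on log2(TPM + 1). Values did not overlap between treated and untreated OSCAR cultures for 7 of the 10 genes, beside 33.8% of all genes tested.

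The drug-treated cultures were also set beside Ad-Control, with which the OSCAR comparison shares its control cultures. Col3a1 and Col5a2 were higher (log2 1.02 and 0.89), and the other 8 genes were lower, beside 31.4% and 31.8% of all genes tested that rose and fell (63.2% in either direction). By the thresholds that the methods set for this comparison, Col3a1 and Col5a2 rose and 7 genes fell, all but Col12a1, beside 14.6% and 15.3% of all genes (29.9% in either direction). The log2 fold change of Col1a2 was -1.78 here, next to -2.38 without the drug, and that of Col1a1 was -1.37 next to -1.67. Col3a1 was further from Ad-Control with the drug, at 2.03-fold against 1.65-fold without it. Among the collagen VI genes the values were -0.93 for Col6a1, -1.18 for Col6a2 and -1.10 for Col6a3. Col14a1 was 9.90-fold below Ad-Control and Col12a1 1.28-fold below it. All 10 genes separated these groups without overlap, as did 66.6% of all genes.

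Per transcript length, the leading gene of the set changed. In Ad-Control cultures the order of TPM was Col1a1 (2564 to 2822), Col3a1 (1847 to 2179), Col1a2 (1561 to 1642), Col5a2 (1396 to 1561), Col6a1 (863 to 916), then Col12a1, Col5a1 and Col6a2, whose neighbours overlapped, then Col6a3 (384 to 429) and Col14a1 (1.78 to 2.07). In Ad-OSCAR cultures Col3a1 (3301 to 3795) and Col5a2 (2541 to 2732) came first and Col1a1 (817 to 904) next, while Col1a2 (301 to 325) overlapped Col5a1 in the seventh place. With 5-ASA the first 4 places were as in Ad-OSCAR cultures, and Col1a2 (417 to 476) overlapped Col12a1 and Col6a1. These places depend on the transcript length that RSEM assigned to each gene. For Col3a1 that length averaged 3556 bases in Ad-OSCAR cultures, while its longest coding transcript has 5564. In CPM, which is not scaled by length, Col5a2 (9423) stood above Col3a1 (7009) in Ad-OSCAR cultures.

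As a share of the summed TPM of the 10 genes, Col3a1 and Col5a2 together made up 31.63%, 33.99% and 29.99% in Ad-Control, 69.3%, 67.1% and 68.6% in Ad-OSCAR and 67.4%, 69.1% and 65.9% in Ad-OSCAR + 5-ASA cultures. Col1a1 and Col1a2 together made up 39.8%, 37.5% and 40.9% in Ad-Control, 13.0%, 14.1% and 12.8% in Ad-OSCAR and 15.2%, 14.0% and 16.0% in Ad-OSCAR + 5-ASA cultures. Collagen I thus held the larger share in Ad-Control cultures, and Col3a1 with Col5a2 held it in all 6 OSCAR-infected ones. The summed TPM of all 10 genes was 10814 to 11149 in Ad-Control, 8711 to 9424 in Ad-OSCAR and 9304 to 9966 in Ad-OSCAR + 5-ASA cultures, on a scale that also moves with the share taken by Saa3.

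**Figure D4:**
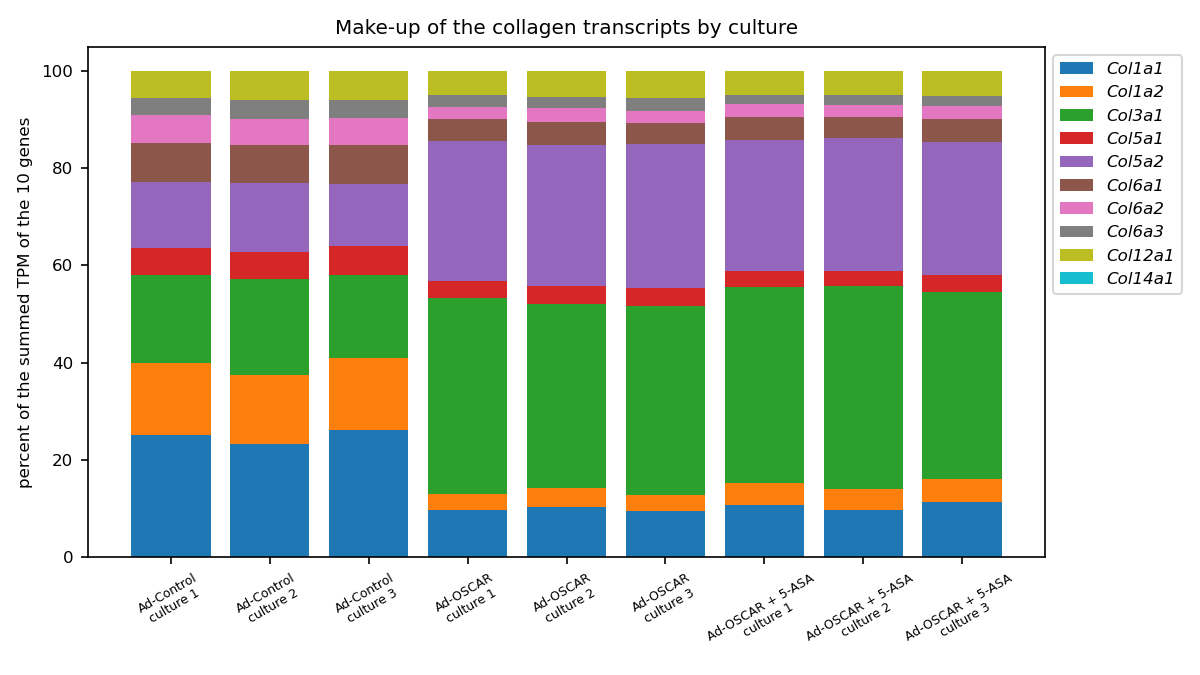
Share of each gene in the summed TPM of the 10 genes (y axis, percent) in each of the 9 cultures (x axis), stacked by gene. Col3a1 and Col5a2 together take between 29.99% and 33.99% in Ad-Control cultures and between 65.9% and 69.3% in the 6 OSCAR-infected cultures.

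The mean transcript length that RSEM assigns to a gene, which moves when reads shift between its isoforms, did not overlap for 1 of the 10 genes, Col6a2, either between Ad-OSCAR and Ad-Control cultures or between the drug-treated and untreated ones. As background, 16.5% and 10.8% of genes with a varying length did not overlap in these comparisons. Between drug-treated and Ad-Control cultures Col6a2 and Col14a1 did not overlap, beside 17.7% of genes. These counts changed when single cultures were left out, to between 1 and 6 members for the drug. Col6a2 had 4034 to 4041 bases in Ad-Control, 4061 to 4062 in Ad-OSCAR and 4071 to 4083 in Ad-OSCAR + 5-ASA cultures. The Col3a1 length ran from 3475 to 3884 bases within the Ad-Control cultures alone. Counts of overlapping genes on the same or the other strand of Col1a2, Col3a1, Col5a1, Col5a2, Col6a3, Col12a1 and Col14a1 stayed at or below 62 in every culture. Whether reads were counted by strand is not given in the sources used here. For Col14a1, whose own counts were as low as 4, an overlapping pseudogene on the other strand had 3 to 23 counts, and if strand was not used in counting, reads of the pair could not be told apart.

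Across the 9 cultures, the patterns nearest to collagen I were sought among all genes with a mean of at least 10 CPM by the root mean square (RMS) difference of centred log2 CPM. Fzd2, a Wnt receptor, was closest to Col1a1 (RMS 0.0495, OSCAR log2 -1.70 and 5-ASA log2 0.30), followed by Mvk and Gas6. Sned1, a matrix protein gene, was closest to Col1a2 (RMS 0.0566, OSCAR log2 -2.28 and 5-ASA log2 0.50), followed by Piezo2, a mechanically gated channel, and Tagln, an actin-binding gene. Among collagens, Col6a2 was nearest to Col1a1 (RMS 0.121), and Col11a1, a cartilage fibril chain, was nearest to Col1a2 (RMS 0.194). Col3a1 lay nearest to Col5a2 (RMS 0.0886), whereas Col5a2 lay nearest to the basement membrane chain Col4a1 (RMS 0.0835). Col6a1 and Col6a3 both had Col5a1 as nearest collagen (RMS 0.108 and 0.0910), and Col6a2 had Col6a1 (RMS 0.115). The nearest collagens to Col5a1, Col12a1 and Col14a1 were Col16a1 (RMS 0.0727), Col10a1 (RMS 0.109) and Col9a1 (RMS 0.395).

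The other collagen genes gave a frame for these changes. All 7 cartilage-type collagens fell with OSCAR, and their median log2 change was -3.15, beside -1.08 for the 10 genes here. Among them Col9a1, a FACIT of cartilage fibrils, had a log2 fold change of -4.11 (SE 0.065) and Col11a2 one of -4.91 (SE 0.094). Of 22 other collagens tested, 8 rose and 8 fell (36.4% each), beside 32.7% and 32.2% of all genes tested. Col8a1, a short-chain collagen, was at log2 1.15 and its partner Col8a2 at -1.13, while the fibrillar Col27a1 was at -4.90. With 5-ASA, 3 of the 7 cartilage-type collagens and 7 of the 22 others rose and none fell.

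Genes that act on procollagen mostly fell. Of 32 tested genes for folding, processing and crosslinking, 29 fell with OSCAR and 2 rose, and the median was -0.95 on the log2 scale. Those that rose were the crosslinking oxidases Lox, from 6486 to 7941 CPM (log2 0.29, SE 0.040), and Loxl2 (log2 0.10, SE 0.040), whereas the related oxidase Loxl4 fell (log2 -3.13, SE 0.057), as did Pcolce2, an enhancer of procollagen C-proteinase (log2 -3.28, SE 0.088). With 5-ASA, 9 of the 32 rose and none fell.

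Of 20 genes for fibril-surface and collagen-binding proteins, 15 fell and 4 rose with OSCAR, and 12 rose with 5-ASA. Tnc, a matrix glycoprotein of injured tissue, rose from 386 to 1793 CPM (log2 2.22, SE 0.041), and Dcn, a small leucine-rich proteoglycan that binds collagen I fibrils, rose from 1639 to 3521 CPM (log2 1.10, SE 0.040). Comp, a cartilage matrix protein, fell from 1142 to 43.8 CPM (log2 -4.71, SE 0.081), and Matn4 fell (log2 -3.47, SE 0.074).

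Among 10 collagen receptors, 6 fell and 2 rose with OSCAR. The integrin chains Itga10 and Itga11 fell (log2 -2.21, SE 0.081, and -1.04, SE 0.080). The anthrax toxin receptors Antxr1 and Antxr2 rose (log2 0.38 and 1.05). With 5-ASA, 6 receptors rose and 1 fell.

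More of the genes for collagen breakdown, its inhibitors and collagen uptake rose than fell. With OSCAR, 8 of 12 rose and 3 fell (median log2 change 0.48), and with 5-ASA 7 rose and none fell. Mmp13, a collagenase that cuts collagen II, went from 3496 CPM in Ad-Control to 8108 CPM in Ad-OSCAR cultures (log2 1.21, SE 0.044). With the drug it stood at 8836 CPM, a difference that did not pass the test (log2 0.12, edgeR adjusted p = 0.0566). Mmp14 rose (log2 0.65, SE 0.049). Among the inhibitors, Timp2 and Timp3 fell (log2 -0.85, SE 0.041, and -3.35, SE 0.051), while Timp1, named after its values were seen, is one of the 8 that rose (log2 0.41, SE 0.045).

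Of 30 regulators of fibrillar collagen transcription, 7 rose and 12 fell with OSCAR (median log2 change -0.06). These are 23.3% and 40%, beside 32.7% and 32.2% of all genes tested. Tgfb1, a growth factor that raises collagen I transcription, went from 34.8 to 74.7 CPM (log2 1.11, SE 0.075). Ccn2, a matricellular TGF-beta target, went from 994 to 304 CPM (log2 -1.71, SE 0.055). Cebpb rose (log2 0.83, SE 0.15) and Sox9, the chondrocyte master regulator, fell (log2 -3.06, SE 0.077). With 5-ASA, 7 of the 30 rose and 2 fell.

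**Figure D5:**
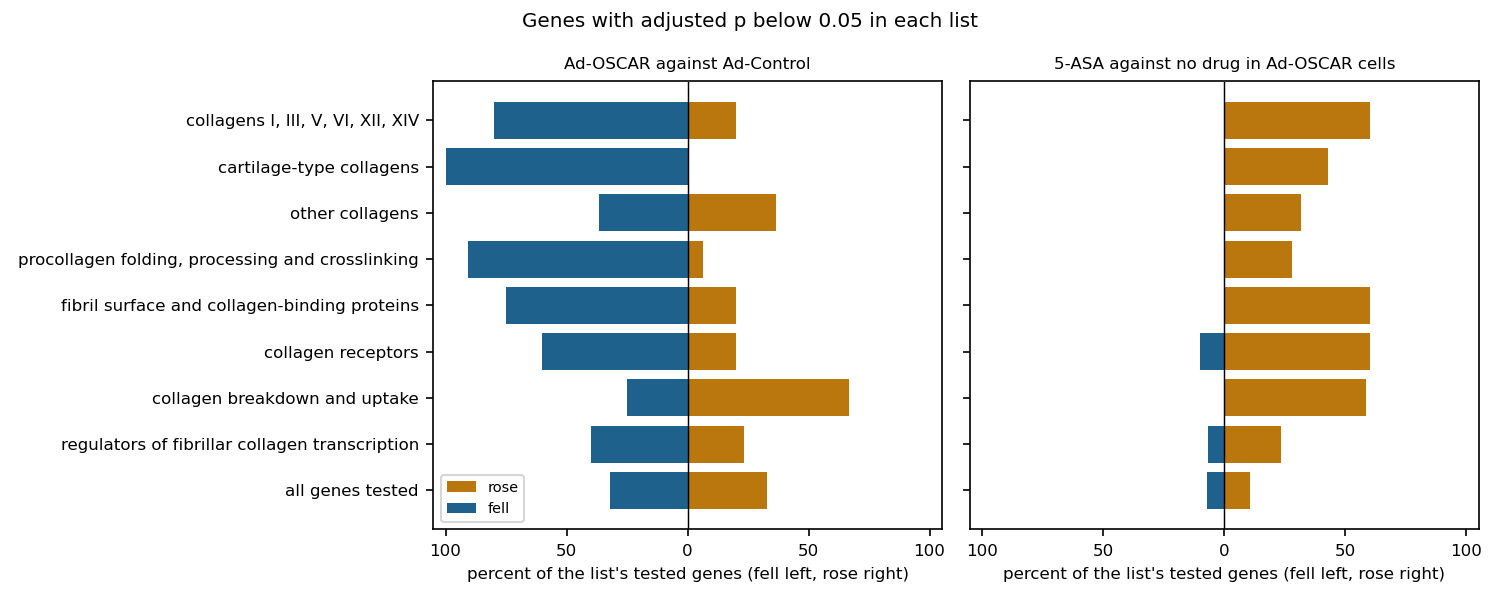
Share of the tested genes of each list (x axis, percent) that rose (right) or fell (left) at an adjusted p below 0.05 in edgeR's quasi-likelihood test, for OSCAR (left panel) and for 5-ASA (right panel), with all genes tested at the bottom. For OSCAR the fallen share is 80% in the 10 collagen genes, 100% in cartilage-type collagens and 32.2% in all genes.

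Markers of cell types moved between the same groups, and their part in the changes of the collagen genes was not tested. The summed level of 10 chondrocyte markers was 42571 to 48358 CPM in Ad-Control, 3082 to 3476 in Ad-OSCAR and 3959.96 to 4426 in Ad-OSCAR + 5-ASA cultures, and all 10 fell with OSCAR while 6 rose with 5-ASA. For 12 fibroblast and synovial fibroblast markers the sum was 4099 to 4159, 1955 to 2035 and 1996 to 2062 CPM. Its fall follows Vim, which averaged 3155.5, 663 and 759 CPM, while Prg4 averaged 247, 897 and 793 CPM. Of the 10 tested, 7 fell with OSCAR, Vim among them (log2 -2.25), and 3 rose, Prg4 among them (log2 1.86). With 5-ASA 5 of these 10 rose, Thy1 (log2 0.80) and Vim (log2 0.20) among them, and 2 fell. The sum of 8 osteoblast markers was 2023 to 2268, 7765 to 8130.5 and 7692 to 8041 CPM. Most of it was Spp1, which averaged 2016, 7880 and 7776 CPM. Of the 6 tested, 3 fell and 2 rose with OSCAR, and 2 rose with 5-ASA. Spp1 rose with OSCAR (log2 1.97), whereas Alpl and Ibsp fell with OSCAR (log2 -2.04 and -2.74) and rose with 5-ASA (log2 0.91 and 1.27).

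Tenocyte markers summed to 1867 to 2047, 326 to 353 and 429 to 460.5 CPM, and all 4 tested fell with OSCAR while 2 rose with 5-ASA, Fmod among them (log2 0.44). Myofibroblast and smooth muscle markers summed to 388 to 423, 63.1 to 76.3 and 95.02 to 99.6 CPM. Acta2, Tagln and Cnn1 fell with OSCAR (log2 -2.56, -2.35 and -4.73), and the same 3 of 5 rose with 5-ASA (log2 0.44, 0.52 and 0.69). Macrophage and leukocyte markers summed to 17.5 to 20.4 CPM in Ad-Control, 36.6 to 37.2 in Ad-OSCAR and 30.06 to 31.5 in Ad-OSCAR + 5-ASA cultures, with Adgre1 at 0 in Ad-Control. Endothelial markers summed to 0.581 to 1.23 CPM in Ad-Control, 4.51 to 5.53 in Ad-OSCAR and 2.23 to 2.73 in Ad-OSCAR + 5-ASA cultures. The 2 tested rose with OSCAR and fell with 5-ASA. Emcn was at 0 in Ad-Control and Cdh5 at 0 in Ad-OSCAR + 5-ASA cultures. Thy1 and Cnn1 were named after their values were seen.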

How the data were processed

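Libraries were prepared by the authors with a stranded mRNA kit and sequenced as pairs of 100-base reads. According to the methods and the submitters' notes, reads were trimmed, aligned to GRCm38 with STAR 2.7.1a and quantified with RSEM 1.3.1. The deposited values used here are expected counts, TPM and transcript lengths in bases per gene and culture. Symbols were matched by Ensembl ID for 55144 of 55471 genes, and coordinates came from GENCODE M21. Expected counts were rounded, filtered with filterByExpr, TMM-scaled and fitted over all 9 cultures with group as the only term (edgeR 4.0.16, R 4.3.3, quasi-likelihood test, Benjamini-Hochberg adjustment over 15362 genes). The test was run on simulated counts first. Ratios of TPM were compared by exact two-sided permutation. Depth was 19733448 to 28192740 counts. The 10 genes and all gene lists were chosen with earlier results of these data known. From each list, up to 2 risers and 2 fallers with the largest OSCAR change and a mean of at least 10 CPM were named, with the 3 genes nearest to each collagen I gene and the collagen nearest to each member. Same-numbered cultures did not deviate together (correlations -0.0724 to 0.0402), so numbers were not used as pairs.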

Additional observations from a re-analysis of the deposited data

How the results depend on the processing

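By adjusted p, all member calls for OSCAR against Ad-Control and for drug-treated cultures against Ad-Control kept direction and threshold under every alternative that measured them, over 169 values each. By the larger OSCAR threshold, 3 fell, and 2 with limma on log2(TPM + 1), where Col14a1 had a log2 change of -1.42. Col14a1 was not measured with at least 10 counts in every culture. For 5-ASA against no drug, 150 of 169 values did so, 10 lost the call, 4 gained it and 5 changed sign. The number that rose with 5-ASA went from 6 to 1 with limma on log2(TPM + 1), where Col1a2 alone passed, and was 5 to 7 when 1 culture was left out. The number that fell went from 0 to 1 (Col6a3) with library totals only, and was 0 to 1 when 1 culture was left out (1 without drug-treated culture 3). By the fold rule for the drug, 2 rose, but 1 with library totals only or at least 10 counts in every culture, 0 with limma on TPM and 1 to 2 when 1 culture was left out (1 without Ad-OSCAR culture 3 or drug-treated culture 3). The Col5a1 change with 5-ASA, 0.02, turned to -0.051 with library totals and -0.020 with limma on TPM, and ran from -0.039 (without drug-treated culture 3) to 0.098 when 1 culture was left out, with -0.012 without Ad-OSCAR culture 3 and -0.0004096 without drug-treated culture 1. Members whose length did not overlap numbered 1 for OSCAR and 1 for 5-ASA, 2 for each with effective length, and 1 to 3 for OSCAR and 1 to 6 for 5-ASA when 1 culture was left out, highest in both without Ad-OSCAR culture 2. Over all genes, the OSCAR count by the study's thresholds was 1530, 905 with at least 10 counts and 705 with limma on TPM. The 5-ASA count was 2732 by adjusted p and 1680 with limma on TPM, and 637 by the study's thresholds, 1012 without a filter, 402 with at least 10 counts and 260 with limma on TPM. Library totals shifted the median of all genes by 0.127 for OSCAR. For 5-ASA the shift over all genes was -0.071 with library totals and -0.089 with limma on TPM. With the replicate number as a block, 2 members rose and 8 fell with OSCAR, 6 rose and 0 fell with 5-ASA, no member call changed, and 2 of 9 cultures correlated best with their own number. The causes were not tested. Depth limits only Col14a1, at 4 to 8 counts in Ad-OSCAR cultures.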
